A study of Mus musculus with 7 samples.

Results

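The 2 diabetes-exposed embryos with a neural tube defect (NTD) were compared with the 2 control embryos, 4 of the 7 embryos of the series, over 14554 of 22690 probe sets. The embryos were taken by their labels, and a probe set entered, array controls aside, if at least 2 of the 7 arrays had its signal at their 40th percentile or higher. All embryos were of the inbred FVB strain and were taken at embryonic day 10.5, and the RNA was that of the whole embryo. The mothers of exposed embryos were 7 to 9 weeks old when diabetes was induced with streptozotocin, and their blood glucose stayed above 250 mg/dl from mating to harvest. Control embryos came from an untreated mother and had no exposure. The remaining 3 embryos were exposed littermates in which no malformation was found, and they served here to measure the spread and to ask whether the embryos with NTD differed from them. Each RNA was hybridised to its own 1-colour Affymetrix 430A 2.0 array. All exposed embryos came from 1 diabetic mother and both controls from 1 untreated mother, so the effect of diabetes and that of the litter cannot be told apart. The p-values measure a difference against the spread within litters.

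The neural tube forms when the neural plate folds and its edges meet and fuse, and a failure of fusion leaves the brain or spinal cord open. Maternal diabetes is a known cause of such defects, with excess glucose, oxidative stress and low oxygen among the conditions studied in exposed embryos. At the stage examined the embryo relies on primitive red cells made in the yolk sac, and its first neurons are being born.

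The deposited values are intensities, MAS5 signals that the authors scaled on each array, and the 2% trimmed mean was 500.0 on all 7 arrays. The median signal was 205.7 to 218.3. The ratio of 3′ to 5′ signals, a measure of RNA integrity, was 0.79 to 0.85 for Gapdh and 1.05 to 1.12 for actin on the 4 arrays compared. A dimmer array control, the transferrin receptor, had 3′ signals of 353 and 325 in controls and 224 and 212 in embryos with NTD. Its 5′ signals were 119 and 127 in controls and 52.9 and 55.7 in embryos with NTD. The ratio of this control was thus higher in both embryos with NTD. The part of RNA integrity in the results was not tested. Embryo 1 with NTD stood apart from the other 3 in the transcripts of the sex chromosomes. By its brightest probe set, Xist RNA, which silences an X chromosome, was at 181 and 165 in the controls, at 7533 in embryo 1 with NTD and at 256 in embryo 2, and the embryos without NTD were at 6074, 6840.2 and 6098. The Y-linked Eif2s3y was at 227 and 203 in the controls, at 0.697 in embryo 1 and at 245 in embryo 2, and at 0.549 to 2.76 in the embryos without NTD. The part of embryo sex in the results was not tested. Embryo 1 without NTD had a summed signal of 32166 over 17 yolk sac and liver markers, against 2648 to 4882 in the other 6 embryos. The 40th percentile lay at 131.5 to 142.1 on these 4 arrays, and lower signals are given with that limit in mind.

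Embryos with NTD had higher signals than controls for genes of red blood cells, glycolysis, glucose and lactate transport, hypoxia and for the metallothioneins Mt1 and Mt2, and lower signals for genes of neurons. No probe set passed the test across the array: limma called 0 of 14554 (0.0%) at a Benjamini-Hochberg adjusted p under 0.05, and the smallest adjusted p was 0.108. The 0 became 2 without control 1 (Zfp207 and Lasp1) and 3 without embryo 2 with NTD (Tm2d2 and 2 probe sets of Xist). Without adjustment 1120 probe sets had p under 0.05, 524 higher and 596 lower in embryos with NTD. The 524 became 321 without control 1 and 302 without embryo 2 with NTD, and the 596 became 258 without control 1, 238 without control 2 and 317 without embryo 2 with NTD. The methods' t-test gave 684 at that threshold and 0 after adjustment. A regularized test like Cyber-T, called by that name below, gave 2813 and 621. It took the spread of a probe set mostly from probe sets of like signal. Both of these tests at unadjusted p under 0.05, with a ratio of mean signals beyond 2-fold, left 22 probe sets, 10 of them lower in embryos with NTD. Beyond 1.5-fold they left 127, of which 79 were lower. An exact permutation test of 2 against 2 embryos has 6 splits and cannot give a two-sided p below 0.333. The median 95% interval of a log2 difference extended 0.48 to either side. In what follows no gene is called changed, and values are given as signals in control 1, control 2, embryo 1 and embryo 2 with NTD. Differences are means of log2 signals in embryos with NTD minus controls, with the standard error (SE) of the limma fit.

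Signals in both embryos with NTD lay above both controls in 3273 probe sets and below both in 3545. Of these, 81 were higher and 100 were lower by 1 or more on the log2 scale. Counted by gene, with the brightest tested probe set for each of 8657 genes, 24.7% lay above both controls and 21.1% below both. By unadjusted p under 0.05, 3.9% of genes were higher and 2.44% were lower. These shares are the background for the counts of each gene list given here. The lists were chosen with earlier results of these data known, so a count above the background is not independent evidence.

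The genes of smallest p with higher signals included a mitochondrial carrier, a metallothionein and several transcription factors. Slc25a22, which carries glutamate into mitochondria, had signals of 381, 471, 1016 and 1314, a difference of 1.45 ± 0.18 (SE) with a limma adjusted p of 0.108. Hes7, a repressor that oscillates in the presomitic mesoderm and times somite formation, had signals of 25.2, 35.2, 211 and 211, a difference of 2.82 ± 0.41 (SE, adjusted p 0.145). Both control signals of Hes7 lay below the 20th percentile of their arrays (41.9 and 48.1), so the size of this difference rests on values near background. Sall4, a zinc finger factor of pluripotent and early embryonic cells, had signals of 437, 455, 853 and 1090.3, a difference of 1.11 ± 0.17 (SE, adjusted p 0.146). Its second probe set differed by 0.72, also with both embryos above both controls. Cited4, a transcriptional coactivator, had signals of 222, 225, 465 and 555 and differed by 1.18.

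The other 8 genes of this group were Mt2, Cpox and Slc2a1, described with their pathways, and Zfp207, Zbtb14, Adi1, Tm2d2 and Zbtb16. For the last 5, other tested probe sets of the gene did not all follow. Zfp207, a zinc finger protein of the mitotic spindle, had signals of 91.1, 47.3, 385 and 306 on the probe set of smallest p, a difference of 2.39. Both of these control signals lay below the 40th percentile of their arrays (131.5 and 142.1), so the size of this difference rests on dim values. The other tested probe sets of Zfp207 differed by -0.35, 0.78 and 0.61. Zbtb14 differed by 1.21 on its probe set of smallest p and by -0.29, 0.02 and -0.05 on the others. Of the 12 genes, 4 had a single tested probe set, 3 had several that all differed upwards, and 5 had probe sets of both signs. A gene with probe sets of both signs has no settled direction here.

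Among genes of smallest p with lower signals were markers of young neurons, a kinesin and a receptor. Dcx, a microtubule protein of migrating neurons, had signals of 631, 773, 233 and 276, a difference of -1.46 ± 0.20 (SE, limma adjusted p 0.126). Its brightest probe set had signals of 894, 914, 578 and 473 and differed by -0.79, and another differed by 0.24. Kif11, the kinesin that separates spindle poles, had signals of 782, 723, 396 and 364, a difference of -0.98 ± 0.17 (SE, adjusted p 0.206), and all 3 of its tested probe sets had negative differences. Tgfbr1, the type I receptor for TGF-beta, had signals of 474, 400, 176 and 137 on this probe set and differed by -1.49, while its brightest one, at 2304, 2288, 2235 and 2039, differed by -0.11. Ttc3, a ubiquitin ligase, had signals of 514, 573, 234 and 178 on its probe set of smallest p and differed by -1.41. Its other tested probe sets, all brighter, differed by -0.20, -0.39 and -0.22.

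The rest of this group, beside Map2, were Rnf14, Api5, Mynn, Ap1g1, Arih1, Vps35 and Phip, with differences of -1.53 to -0.75 and adjusted p of 0.272 to 0.355 on the probe set of smallest p. Mynn differed by -1.53 there and by 0.11, 0.13, -0.19 and -0.63 on its other tested probe sets, and Api5 by -1.03 there and by -0.05 and 0.09 on the others. Arih1, like Ttc3 a ubiquitin ligase, had signals of 771, 726, 426 and 468. Ap1g1 and Vps35 belong to machinery that sorts cargo between the Golgi and endosomes, and Vps35 had signals of 692, 786, 421 and 445, while its brightest probe set differed by -0.18. Of the 12 genes, 9 had several tested probe sets that all differed downwards and 3, Dcx, Api5 and Mynn, had both signs.

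**Figure D1:**
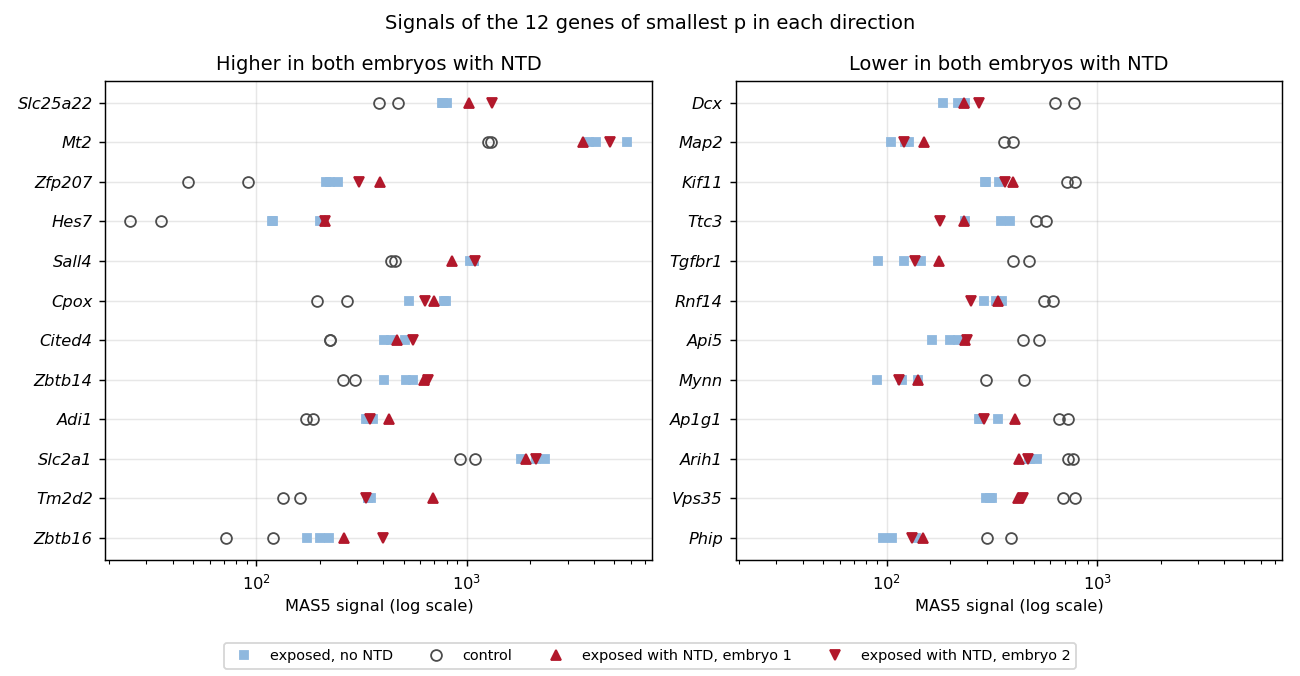
MAS5 signal on a log axis for the 12 single-symbol probe sets of smallest p in each direction, 1 point per embryo. Open circles are the 2 controls, triangles the 2 embryos with NTD and squares the 3 exposed embryos without NTD. Hes7 runs from 25.2 and 35.2 in controls to 211 in both embryos with NTD.

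All 14 tested genes of red blood cells had higher signals in both embryos with NTD than in both controls, against 24.7% of all genes. The median difference was 0.61, against 0.02 over all genes, and 9 of the 14 had unadjusted p under 0.05 (background 3.9%), with limma adjusted p of 0.368 or more. That count was 4 without control 1 and 3 without embryo 2 with NTD. Slc4a1, the anion exchanger of the red cell membrane, had signals of 1247, 1199, 2416 and 2827, a difference of 1.10 ± 0.25 (SE, adjusted p 0.368), and a second probe set differed by 0.88. Blvrb, which reduces biliverdin and flavins in red cells, had signals of 347, 327, 731 and 744, a difference of 1.13. These signals did not overlap between the groups. The erythroid transcription factors were higher by like amounts: Klf1 had signals of 440, 501, 713 and 748, and Gata1 had 180, 246, 320 and 341. Epor, the erythropoietin receptor, had signals of 335, 365, 475 and 1026, so that its difference of 1.00 rested largely on embryo 2. The embryonic globins, near the top of the scale of the array, differed less. Hbb-bh1 had signals of 15748, 16594, 21293 and 22247 and Hba-x had 20641, 21381, 24294 and 23404, differences of 0.43 and 0.18.

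Heme synthesis, which supplies the globins, followed in part. Of 11 tested genes 7 lay above both controls and 0 below, 2 had unadjusted p under 0.05 (5 without embryo 1 with NTD), and the median difference was 0.35. Cpox, a late enzyme of the pathway, had signals of 270, 195, 693 and 629, a difference of 1.53 ± 0.24 (SE, limma adjusted p 0.152), and its second probe set differed by 1.01. Alad, the enzyme of the second step, had signals of 1304, 1397, 1868 and 2064, a difference of 0.54. Alas2, the erythroid enzyme of the first step, had signals of 1059, 1178, 1248 and 2084, with embryo 1 barely above the controls. The summed signal over 17 red cell genes was 55552 and 57927 in controls and 71135 and 73371 in embryos with NTD. In RNA of whole embryos, more cells of a type and more RNA in each cell cannot be told apart, and this holds for every cell type named here.

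**Figure D2:**
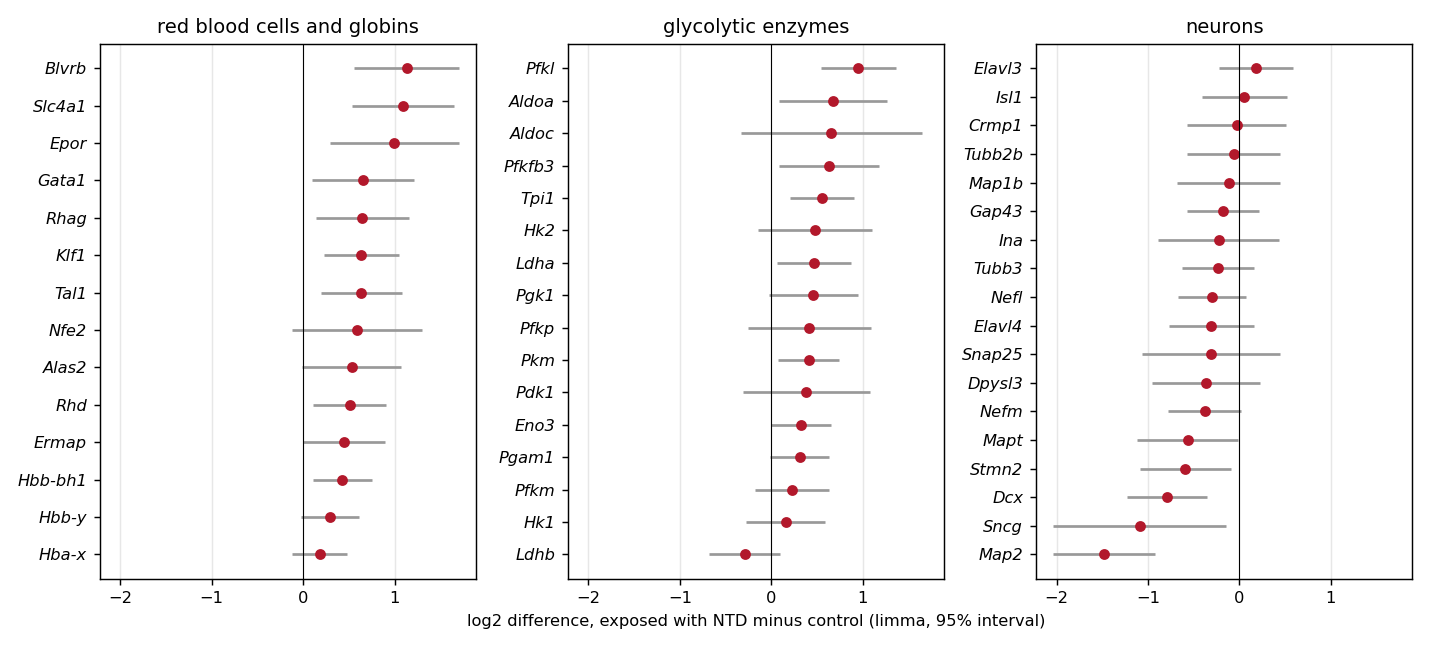
Difference of mean log2 signal between embryos with NTD and controls for each tested gene of 3 lists, with its 95% interval from limma. All 14 red blood cell genes and 15 of 16 glycolytic genes lie to the right of 0, and 16 of 18 neuronal genes lie to the left. The intervals are unadjusted for the number of genes.

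Genes that take up and burn glucose had higher signals in embryos with NTD. Of 16 tested glycolytic genes 15 lay above both controls and 1 below, 7 had unadjusted p under 0.05, and the median difference was 0.44. The 7 became 3 without control 1, 2 without control 2 and 1 without embryo 2 with NTD. Pfkl, the liver type of the committed step enzyme phosphofructokinase, had signals of 2098, 1824, 3328 and 4297, a difference of 0.95 ± 0.18 (SE, limma adjusted p 0.272), and its second probe set differed by 0.68. Tpi1, which interconverts the triose phosphates, had signals of 4449, 4267, 5846 and 7041 and differed by 0.56. Ldha, which makes lactate, had signals of 8736, 8385, 10961 and 12793, a difference of 0.47. Ldhb, the isoform that favours pyruvate, was the exception, with signals of 2344, 3052, 2079 and 2298 and a difference of -0.29 ± 0.17 (SE).

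Of 8 transporters of glucose and lactate, 6 lay above both controls and 0 below, with a median difference of 0.42. Slc2a1 encodes the glucose transporter Glut1. On the probe set of smallest p it had signals of 1087, 927, 1912 and 2133, a difference of 1.01 ± 0.17 (SE, limma adjusted p 0.206). Its other probe sets differed by 0.90 and 0.47. In other exposed embryos, none malformed, the study's quantitative RT-PCR found Slc2a1 lower than in controls. The study traced this to the length of 3′ untranslated sequence and the place of the array's probes. That assay also put Phip higher and found no difference in Cited4. Most genes assayed, Mt2, Dcx, Map2 and Tgfbr1 among them, kept the array's direction. Slc16a3, which exports lactate, had signals of 418, 306, 600.2 and 1045 and differed by 1.15 ± 0.29 (SE, adjusted p 0.449). Slc2a3, a high-affinity glucose transporter, had signals of 1963, 1810.2, 2936 and 3561 on its brightest probe set. That probe set differed by 0.78 and another by 1.00, while the remaining 2 differed by -0.06 and -0.26.

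Hypoxia-responsive genes outside glycolysis showed the same order. Of 16 tested, 13 lay above both controls and 0 below, 4 had unadjusted p under 0.05, and the median difference was 0.38. The 4 became 1 without control 1 and 0 without control 2 or without embryo 2 with NTD. Bnip3, which drives removal of mitochondria, had signals of 1086, 976, 1766 and 2993, a difference of 1.16 ± 0.38 (SE, limma adjusted p 0.557). Ddit4, an inhibitor of mTOR signalling, had signals of 1066, 1145, 1295 and 2223, and Vegfa, the vascular growth factor, had 282, 314, 366 and 452. In each of these the value of embryo 2 was the higher. The genes that sense oxygen did not share this: of 8 tested, 2 lay above both controls and 3 below, with a median of -0.06. Hif1a, the oxygen-regulated subunit of the factor, had signals of 2593, 2316, 1932 and 1723, a difference of -0.43 ± 0.16 (SE, adjusted p 0.598), and its other probe sets differed by -1.03, -0.14 and 0.02. The red cell sums given above were higher in the same embryos, and red cells also carry glycolytic enzymes. Their part in these results was not tested.

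The windows of 250 bases before the transcription start of Slc2a1 and Bnip3 are shown because these genes are known targets of the hypoxia-inducible factors, and each was well above both controls. They were taken from RefSeq (GRCm38.p6), and capitals mark the core of the hypoxia response element, ACGTG or GCGTG, on either strand. Slc2a1 (chr4:119108495-119108744, + strand) held 2 matches and Bnip3 (chr7:138909507-138909756, - strand) held 5, some of which overlap on opposite strands.
Slc2a1: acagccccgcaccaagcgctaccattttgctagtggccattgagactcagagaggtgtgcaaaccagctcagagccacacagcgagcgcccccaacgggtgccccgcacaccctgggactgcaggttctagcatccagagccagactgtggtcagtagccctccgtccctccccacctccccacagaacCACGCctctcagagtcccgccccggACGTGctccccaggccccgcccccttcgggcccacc
Bnip3: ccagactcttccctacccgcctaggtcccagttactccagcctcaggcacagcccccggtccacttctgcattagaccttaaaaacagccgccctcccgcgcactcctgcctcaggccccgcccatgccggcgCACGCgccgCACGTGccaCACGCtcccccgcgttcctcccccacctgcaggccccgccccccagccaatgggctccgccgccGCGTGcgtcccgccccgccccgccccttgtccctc
At least 1 match was found before 15 of 16 tested glycolytic genes and 13 of 14 hypoxia genes with a window, and before 41.5% of 27025 genes. The same windows also held the core of the metal response element, spelled out with the metallothioneins, before 9 of the 16 and 8 of the 14. Its background was 23.8%, so a share above background was seen for both motifs. A gene with several windows was counted by the one with most matches. These shares were not tested. A match to these letters is a description of the sequence.

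Of 4 tested genes listed with the metallothioneins, small proteins that bind zinc and copper and are induced by metals and oxidants, 2 lay above both controls and 0 below, with a median difference of 0.67. Mt2 had signals of 1251, 1301, 3556 and 4767, a difference of 1.69 ± 0.21 (SE) with a limma adjusted p of 0.108. Mt1 had signals of 1178, 963, 1953 and 3049.6 on its tested probe set, a difference of 1.20 ± 0.31 (SE, adjusted p 0.449). In both genes each embryo with NTD lay above each control, and embryo 2 was the higher. Mtf1, the zinc sensor that activates both genes, had signals of 168, 196, 168 and 241, which overlapped between the groups. Slc30a1, a zinc exporter that Mtf1 also activates, had signals of 121, 164, 126 and 138 and overlapped as well. Of 21 tested antioxidant enzymes 9 lay above both controls and 3 below, 0 had unadjusted p under 0.05, and the median difference was 0.05.

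The windows before Mt2 (chr8:94172368-94172617, + strand) and Mt1 (chr8:94178839-94179088, + strand) both lie on chromosome 8 and are shown because both genes lay above the controls in both embryos with NTD and are textbook targets of the metal response element. Capitals mark its core, TGCACNC or TGCGCNC, on either strand, with N any base.
Mt2: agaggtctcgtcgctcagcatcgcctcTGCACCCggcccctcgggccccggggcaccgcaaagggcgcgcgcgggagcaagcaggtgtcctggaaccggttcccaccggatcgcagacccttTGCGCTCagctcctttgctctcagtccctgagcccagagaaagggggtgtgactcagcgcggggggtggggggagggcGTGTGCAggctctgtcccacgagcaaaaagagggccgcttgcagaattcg
Mt1: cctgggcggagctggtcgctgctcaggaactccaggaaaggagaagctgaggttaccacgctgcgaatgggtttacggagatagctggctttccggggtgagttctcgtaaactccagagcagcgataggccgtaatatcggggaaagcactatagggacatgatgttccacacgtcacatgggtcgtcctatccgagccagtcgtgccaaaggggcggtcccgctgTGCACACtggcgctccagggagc
Within these windows Mt2 held 3 matches and Mt1 held 1, and bases outside them were not searched. Among all 27025 genes, 23.8% held at least 1 match in a window of the same length.

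Neuronal genes had lower signals in embryos with NTD. Of 18 tested, 11 lay below both controls and 1 above, against 21.1% and 24.7% of all genes, 5 had unadjusted p under 0.05 (background 2.44%), and the median difference was -0.30. The 5 became 2 without either control and 3 without either embryo with NTD. Map2, a dendritic microtubule protein, had signals of 359, 396, 151 and 121, a difference of -1.48 ± 0.25 (SE, limma adjusted p 0.206). Its second probe set had signals of 207, 283, 21.2 and 10.1, with both embryos with NTD below the 20th percentile of the array. Stmn2, a regulator of growing axons, had signals of 1513, 1576, 1132 and 928, a difference of -0.59. Sncg, the synuclein of sensory and motor neurons, had signals of 271, 211, 87.4 and 145. Tubb3, the neuronal tubulin, had signals of 1286, 1133, 1018 and 1039, a smaller difference of -0.23. Not every neuronal gene shared this. Elavl3, an RNA binding protein of new neurons, lay above both controls at 656, 620.4, 732 and 714. Isl1, a factor of motor and sensory neurons, overlapped at 848, 719.7, 753 and 875.

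The cells that give rise to neurons did not show a common shift. Of 15 genes of neural progenitors 3 lay above both controls and 3 below, with a median of -0.05. Sox2 had signals of 1521, 1385, 1576 and 1433, and Pax6 had 487, 449, 496 and 437. Fabp7, a lipid carrier of radial glia, was lower, at 2451, 2483, 1845 and 1440, and Msi1, an RNA binding protein of progenitors, was higher on its brightest probe set, at 734, 754, 1100 and 1268. Another probe set of Msi1, too dim to be tested, differed by -1.19. Proneural factors, which commit progenitors to become neurons, had 5 of 14 above both controls, 3 below and a median of -0.03. The summed signal over 19 neuronal genes was 20685 and 20529 in controls and 16943 and 17199 in embryos with NTD, and that over 18 progenitor genes was 26632, 24433, 26091 and 25651.

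Other cell types differed less evenly. Of 15 epithelial genes 8 lay above both controls and 0 below, with a median of 0.35. Cldn3, a tight junction protein, had signals of 204, 207, 460.3 and 508, a difference of 1.23 ± 0.22 (SE, limma adjusted p 0.215), and its other 2 tested probe sets also had positive differences. Krt8, a simple keratin, had signals of 710.4, 748, 1099 and 1180.3, whereas Epcam, an adhesion molecule of most epithelia, overlapped at 288, 269, 254 and 294. Heart genes had 11 of 22 above both controls and 2 below, with a median of 0.14. Hand1, a factor of the left ventricle and of extraembryonic tissue, had signals of 246, 268, 480.3 and 459, a difference of 0.87 ± 0.19 (SE, adjusted p 0.357). Of 13 tested genes of somites and skeletal muscle 5 lay above both controls and 2 below, with a median of 0.12. Meox1, a somite factor, had signals of 605, 605, 994 and 1053, a difference of 0.76, while Eya1, a factor of muscle precursors, had 233, 252, 155 and 193, a difference of -0.49.

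Markers of yolk sac, placenta and white blood cells gave mixed differences. Of 8 tested yolk sac and liver genes 6 lay below both controls and 0 above, with a median of -0.37. Ttr, which carries thyroid hormone and is made by yolk sac endoderm, had signals of 488, 446, 183 and 171, and Alb, serum albumin, had 314, 426, 128 and 222. The difference of Ttr of -1.40 had an SE of 1.17, and the 3 littermates whose spread entered it were at 3568, 152 and 183. Tpbpa, a marker of placental spongiotrophoblast, had signals of 7.51 to 43.4 on its 3 probe sets, under the 40th percentile on all 4 arrays. Of 4 tested genes of placenta and decidua 2 lay above both controls, Hand1 and Cebpb, and 0 below, with a median of 0.33. The summed signal over 13 such genes was 1020.2 and 1156 in controls and 1400 and 1326 in embryos with NTD. Ptprc, the common leukocyte antigen, had signals of 62.6, 63.5, 54.1 and 46.5, also under it. Of 10 tested leukocyte genes 0 lay above both controls and 3 below.

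**Figure D3:**
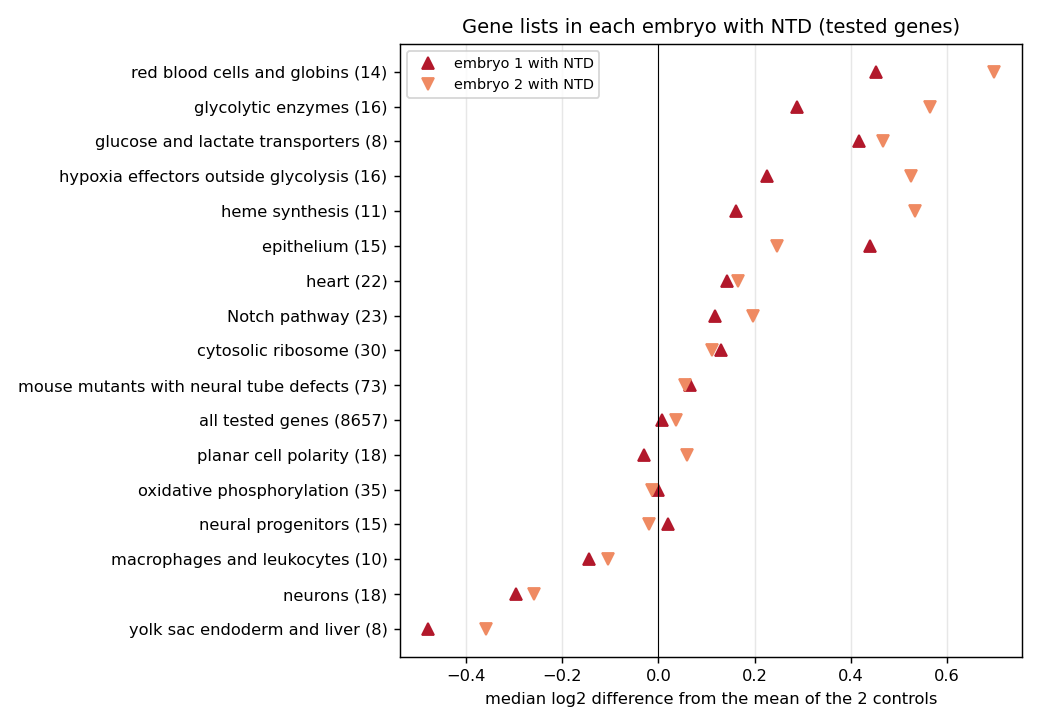
Median over the tested genes of each list (number in brackets) of the log2 difference between 1 embryo with NTD and the mean of the 2 controls. Upward triangles are embryo 1 and downward triangles embryo 2. Red blood cell genes lie at 0.45 and 0.70, neuronal genes at -0.30 and -0.26, and all tested genes near 0.

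Genes from a list of mouse mutants with NTDs, alone or in combination with other genes, showed no common direction. Of 73 tested, 23 lay above both controls and 14 below, and the median difference was 0.07. By unadjusted p under 0.05 in limma, 3 were higher and 1 lower. The 3 became 1 without control 1 or without embryo 2 with NTD. Cyp26a1, which degrades retinoic acid, had signals of 227, 225, 358 and 343, a difference of 0.63 ± 0.20 (SE, limma adjusted p 0.527). Sfrp1, a secreted Wnt antagonist, had signals of 1153, 1317, 1515 and 1734 on its brightest probe set and differed by 0.40. Its other tested probe sets differed by 0.17, -0.06 and 0.36, so its direction is not settled here. Itga3, a laminin receptor, had signals of 313, 331, 439 and 498, a difference of 0.54. The lower one was Hif1a, given above. Pax3, a paired box factor of the dorsal neural tube whose loss causes NTDs, had signals of 471, 451, 531 and 332 on one probe set and 225, 280.1, 313 and 244 on the other, and the groups overlapped on both.

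Among 18 tested genes of planar cell polarity, the system that narrows and lengthens the neural plate, 5 lay above both controls and 4 below, and the median was 0.00. Vangl2, its core membrane protein, had signals of 805, 779.7, 998 and 933, a difference of 0.28 ± 0.17 (SE). Of 16 genes of folate and 1-carbon metabolism 3 lay above and 4 below, with a median of 0.08. Shmt2, the mitochondrial serine hydroxymethyltransferase, had signals of 1077, 858, 1253 and 1347.

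The study named 7 genes associated with NTDs from comparisons that included these embryos, so their direction is not independent evidence. By their brightest probe sets 1 lay above both controls and 3 below, with a median of -0.10. Hif1a and Tgfbr1, which belong to this list, are given above. For the other 5, the other tested probe sets had lower differences than the brightest one. Twsg1, a BMP regulator, differed by -0.15 on its brightest probe set and by -1.99 and -0.37 on its other tested ones. Vcl, the adhesion protein vinculin, differed by -0.10 and -1.25, and Adam10, a membrane protease, by -0.09, -1.10 and -0.55. Pdgfra, a growth factor receptor, differed by -0.03 and -0.87. Tfrc, the transferrin receptor, had signals of 1980.3, 1966, 2042 and 3372 on its brightest probe set, a difference of 0.41, and the other 2 tested probe sets differed by -0.33 and -0.80.

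Growth and signalling genes gave scattered differences. Cdkn1a, the p53 target that halts the cell cycle, had signals of 209, 238, 349 and 375, a difference of 0.70 ± 0.19 (SE, limma adjusted p 0.474), while the 20 tested genes of p53 and apoptosis had 6 above both controls and 5 below. Igf1, a growth factor, had signals of 757, 858, 543 and 513, a difference of -0.61 ± 0.16 (SE, adjusted p 0.449). Its other probe sets differed by -0.56 and 0.37. Ccn2 and Fos, serum-induced genes, were lower. Ccn2 had signals of 660.3, 709, 380.4 and 400.2, and Fos had 276, 263, 125 and 173. Myc, a growth factor-induced regulator of cell growth, had signals of 345, 321, 427 and 528.

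Among chromatin regulators 7 of 30 lay above both controls and 9 below. Atrx, a chromatin remodeler encoded on the X chromosome, had signals of 447, 430.1, 212 and 247, a difference of -0.94 ± 0.21 (SE, limma adjusted p 0.366), and all 5 of its probe sets had negative differences. Chd7, another remodeler, had signals of 453, 463, 749.6 and 755, a difference of 0.72 ± 0.20 (SE). Notch pathway genes had 12 of 23 above both controls and 4 below, with a median of 0.17. Of 13 tested genes of the segmentation clock and somite boundary, Hes7 among them, 3 lay above both controls and 3 below. Epha4, an ephrin receptor, had signals of 553, 548, 375 and 289, a difference of -0.74 ± 0.19 (SE, adjusted p 0.449). Lfng, a glycosyltransferase that modifies Notch, had signals of 264, 284, 325 and 343.

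Genes of the cytosolic ribosome differed by little and in the same direction, with 20 of 30 above both controls, 1 below, a median of 0.11 and 0 with unadjusted p under 0.05. Respiratory chain genes had 8 of 35 above and 8 below, with a median of -0.02. Etnk1, an ethanolamine kinase, and Gmfb, a glia maturation factor, had probe sets that differed in size. Etnk1 differed by -0.34, -0.69 and -1.03, and its brightest probe set had signals of 1003, 912, 656 and 872. Gmfb differed by -0.92, -1.34, -0.19 and -0.28 on its tested probe sets. The study named both genes as passing its criteria between exposed embryos with and without NTD. On the Etnk1 probe set with -0.69, embryos with NTD were at 123 and 143, those without at 42.3, 50.3 and 69.1. On the Gmfb probe set with -0.92, embryos with NTD were at 219 and 181, those without at 89.3, 130 and 117. All of these lay below both controls. On the other tested probe sets of both genes the exposed groups overlapped. Pole4, a small subunit of DNA polymerase epsilon, overlapped between the groups and differed by 0.04 and -0.04.

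The 2 embryos with NTD were not alike. Over the tested probe sets Pearson's r of log2 signals was 0.964 between them, 0.958 to 0.963 between an embryo with NTD and a control, and 0.977 between the controls. Probe sets are not independent replicates, and no test was applied. Embryo 1 lay 1 or more above the control mean on the log2 scale in 121 probe sets and below it by as much in 111. Embryo 2 did so in 138 and 239. Both did so together in 40 probe sets upwards and 38 downwards. The embryos differed from each other by 1 or more in 339 probe sets, and the controls differed in 199.

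In 5 probe sets the embryos lay 1 or more from the control mean on opposite sides, and these had Gp9, Hkdc1, Cd33, Stap2 and Shroom3 as genes. Shroom3, an actin-binding protein needed for folding of the neural plate, had signals of 193, 57.1, 48.1 and 249, so that the controls also spanned nearly that range. Gp9, a platelet membrane glycoprotein, had signals of 103, 76.9, 26.9 and 270.2. The lists of glycolysis, hypoxia and heme synthesis were further from controls in embryo 2 than in embryo 1. The median of glycolytic genes was 0.29 in embryo 1 and 0.56 in embryo 2, that of hypoxia genes 0.23 and 0.53, and that of heme synthesis 0.16 and 0.53. Neuronal genes were at -0.30 and -0.26, and transporters at 0.42 and 0.47.

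**Figure D4:**
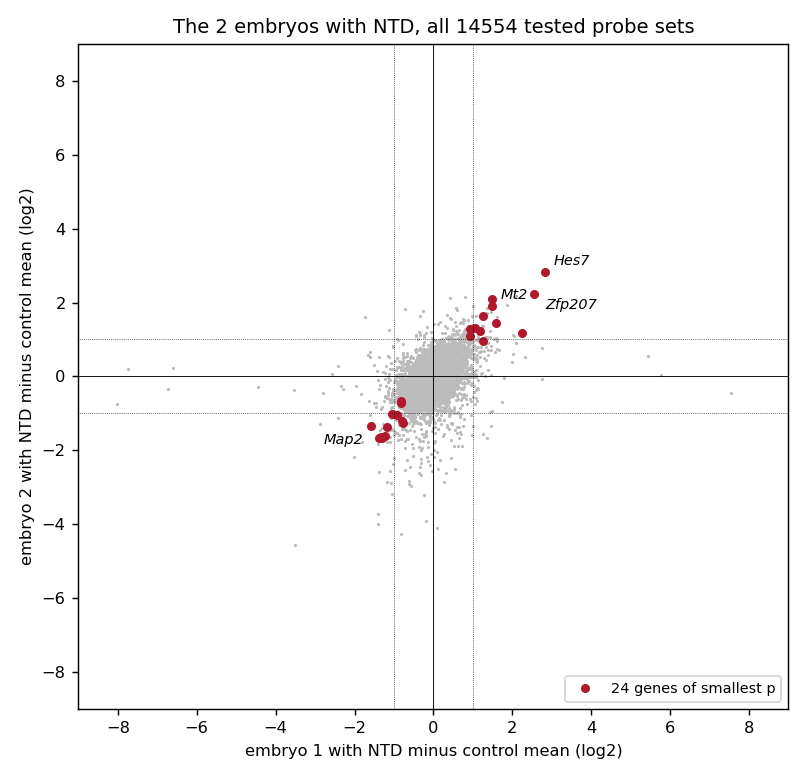
Log2 difference from the control mean for embryo 1 with NTD (horizontal) and embryo 2 (vertical), 1 point for each of 14554 tested probe sets, with dotted lines at 1 and -1. Red points are the 24 genes of smallest p, chosen in part for lying on the same side in both embryos. Points far along the horizontal axis and near 0 on the vertical include Xist and Eif2s3y.

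None of the differences from controls was shown to be particular to the embryos with NTD. Against the 3 exposed littermates without NTD, limma called 0 of 14554 probe sets, with a smallest adjusted p of 0.999, and 239 were higher and 201 lower at unadjusted p under 0.05. These 440 became 1368 without embryo 2 without NTD, and the 0 became 2, both of Xist, without embryo 1 with NTD. By gene, 2.51% had unadjusted p under 0.05 in that comparison. The gene of smallest p was Nkx2-6, a pharyngeal and cardiac homeobox factor, with signals of 221 and 159 in embryos with NTD, 148 and 172 in controls, and 35.5, 35.2 and 49.7 in embryos without NTD. Gnai2, an inhibitory G protein subunit, had signals of 767 and 1157 with NTD, 955 and 899 in controls, and 1969, 2104 and 1528 without NTD on this probe set. On these probe sets the embryos with NTD lay near the controls, and Macroh2a1, also among the smallest p, did so too. Nsmce4a and Tcl1b1, likewise among them, had both embryos with NTD below both controls. Nsmce4a had 198 and 198 with NTD, 206 and 423 in controls, and 632, 489 and 488 without NTD. Tcl1b1 had 74.7 and 66.5 with NTD, 100.3 and 99.5 in controls, and 234, 147 and 188 without NTD. The brighter probe set of Gnai2 had signals of 2120.4, 1856, 3285 and 3315, and 3729, 3148 and 3647 in embryos without NTD, so that there the embryos with NTD lay above both controls.

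For the main lists the embryos without NTD were placed as follows, against the same 2 controls. Their median difference was 0.54 for red blood cell genes, 0.55 for glycolytic genes, 0.62 for hypoxia genes and -0.44 for neuronal genes. Those of embryos with NTD were 0.61, 0.44, 0.38 and -0.30. For yolk sac and liver genes the median was 0.07 without NTD and -0.37 with NTD, where embryo 1 without NTD had the high sum given above. The other medians, without and then with NTD, were 0.42 and 0.42 for transporters, 0.35 and 0.35 for heme synthesis, 0.47 and 0.35 for epithelium and 0.13 and 0.07 for genes of NTD mutants. As both sets of differences share the controls, an unusual control signal would shift both alike. Mt2 had signals of 5776, 4116 and 3811 in embryos without NTD, and Hes7 had 120.1, 201 and 118, against the values above in embryos with NTD.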

How the data were processed

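The authors' deposited values are linear intensities, scaled on each array. The submitters' processing notes name MAS5, with its version not given in the sources used here. Detection calls played no part. Of 22690 probe sets 64 array controls were set aside, and the array annotation gave 20393 probe sets 1 symbol, 691 several and 1606 none. Values below 1 were set to 1 and log2 was taken. Groups followed the labels. Control embryos and exposed embryos with and without NTD were fitted together, with 4 residual degrees of freedom, by limma 3.58.1 (R 4.3.3), whose prior spread was let to follow the mean signal. Calls needed an adjusted p under 0.05 (Benjamini-Hochberg over all tested probe sets). The study states no test for these 4 embryos, and its criteria were retraced with the methods' t-test and a Cyber-T-like regularized test (window of 101 probe sets, confidence of 10), both on log2 signals, with the ratio of mean signals as fold.

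A gene entered a list with its brightest tested single-symbol probe set. The members and lists were chosen with earlier results of these data known, and lists are described by counts and medians with no test. Named genes were the 12 of smallest p in each direction with both embryos with NTD on one side of both controls, up to 4 of smallest p from a list, the study's NTD genes, other genes it discusses, cell type markers, and leading genes of the comparison with exposed littermates. Some further members of a list were named after their values were seen, to show its range. Alternatives were quantile normalization, median centring, floors of 16 and 64, an offset of 50, other filters, no trend, array weights, the 4 arrays alone, a replicate block and each embryo left out. The fit was tested on simulated data. The number of arrays limits the precision. Promoter windows came from RefSeq (GRCm38.p6). Python 3.11.15 was used with NumPy 2.4.6, SciPy 1.17.1, pandas 2.3.3 and Matplotlib 3.10.9.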

Additional observations from a re-analysis of the deposited data

How the results depend on the processing

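The count of 0 called probe sets against controls became 621 with the Cyber-T test, 28 with array weights and 0 to 3 with an embryo left out, and stayed 0 with the methods' t-test and the other limma fits. The 3 calls without embryo 2 with NTD included 2 probe sets of Xist. The methods' t-test and Cyber-T together gave 22 probe sets beyond 2-fold and 127 beyond 1.5-fold. All 24 genes of smallest p kept the direction of their difference in all 19 alternatives that retained their probe set. They were chosen with both embryos with NTD on one side of both controls. Of the alternatives, only quantile normalization and median centring could therefore have reversed a direction. Unadjusted counts were 930 higher and 1125 lower with the 4 arrays alone, 969 and 1125 with array weights, and 302 to 665 and 238 to 774 with an embryo left out. Against exposed embryos without NTD, calls were 0 to 2 and unadjusted counts 330 to 1368 with an embryo left out, both calls being of Xist, and the unadjusted count was 737 with no filter and 285 with the filter at the 60th percentile. The fit with only 4 arrays has no embryo without NTD and gave no value there.

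Floors, offsets and filters changed the dim end of the scale. Separated probe sets with a difference of 1 or more numbered 31 above and 42 below with an offset of 50, 539 and 572 with no filter, 31 and 17 with the 40th percentile required on all 4 arrays, and 38 and 21 at the 60th percentile. In the same order, embryo 1 with NTD lay 1 or more from the control mean in 93, 1833, 62 and 67 probe sets, embryo 2 in 200, 2277, 118 and 129, and both the same way in 24, 647, 18 and 25. The r of the 2 embryos with NTD was 0.966 and 0.972 with floors of 16 and 64, 0.975 with the offset, 0.96 with no filter, 0.978 with the filter on all 4 arrays and 0.97 at the 60th percentile. The mean r of NTD and control pairs was 0.966 with the floor of 64 and 0.971 with the offset or with the filter on all 4 arrays.

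The list medians kept their sign throughout. With an embryo left out they were 0.438 to 0.698 for red blood cells, 0.288 to 0.565 for glycolysis, 0.226 to 0.525 for hypoxia, 0.412 to 0.467 for transporters, 0.161 to 0.533 for heme synthesis, 0.247 to 0.488 for epithelium, -0.331 to -0.259 for neurons, -0.505 to -0.348 for yolk sac and liver, and 0.041 to 0.075 for NTD mutants. The leave-out fits of lists were added after seeing the data. Transporters had a median of 0.47 with either stricter filter. Neurons had -0.262 with the offset and -0.232 with either stricter filter. NTD mutants had 0.095 with quantile normalization, 0.099 with median centring, 0.088 with no filter and 0.066 at the 60th percentile. The causes of these shifts were not tested.

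With the replicate number as a block there were 0 calls, and 497 probe sets were higher and 517 lower at unadjusted p under 0.05. Same-numbered embryos with NTD and controls come from different litters and share only a number. The correlation of their deviations from the group means was 0.026.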
